A study of Rattus norvegicus with 6 samples.

Results

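The paralemmin family was examined in the testis of diabetic and non-diabetic rats. Its 4 members, Palm (ENSRNOG00000009760), Palm2 (ENSRNOG00000025558), Palm3 (ENSRNOG00000005729) and Palmd (ENSRNOG00000058609), were taken by gene symbol from the 35291 genes of the deposited expression table, and each symbol labelled 1 gene. The family was selected on a measured value, the rise of Palm in the diabetic testes, so the differences between diabetic and non-diabetic samples in the 4 members are described here without a test.

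RNA-Seq was performed on testicular tissue of Sprague-Dawley rats, an outbred strain, with 3 diabetic (DM) and 3 non-diabetic samples. The DM rats were kept on a high-fat diet and then given 1 intraperitoneal injection of streptozotocin at 35 mg/kg, a toxin of pancreatic beta cells, and their testes were taken 8 weeks later. The non-diabetic rats received citrate buffer, and the methods do not say whether they were also given the high-fat diet, so that the effects of diet, toxin and diabetes cannot be told apart. Persistent hyperglycaemia defined the DM group. The rats were adult males, their exact age is not given in the sources used here, and the labels do not say whether a sample is 1 rat or a pool, so the spread between samples may be partly technical.

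Paralemmins are phosphoproteins of the inner face of the plasma membrane. Paralemmin-1, the product of Palm, is held there by lipids, a prenyl group added at its C-terminal CaaX motif and palmitates added nearby, and it was first described in brain, where it takes part in the outgrowth of filopodia and dendritic spines. Palm2 and Palm3 encode related proteins, and paralemmin-3 binds the interleukin-1 receptor family member SIGIRR. Palmd encodes palmdelphin, a mostly cytosolic relative that is known from muscle, endothelium and the aortic valve.

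Expression was given as FPKM, fragments scaled by transcript length and library size, so that levels can be compared between genes per length. The totals of the 6 samples ran from 453304 to 478211 FPKM. The number of reads is unknown, but the commonest ratios among genes below 1 FPKM put the depth of the samples between 0.893 and 1.09 times their mean. The samples correlated with each other at 0.957 to 0.966 across the genes tested. Germ cell markers were high in every sample, with the 6 spermatid markers summing to at least 7503 FPKM. The 5 markers of epididymis summed to at most 0.170 FPKM, and 2 of them, Defb1 and Spink13, were listed at 0 in all samples.

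Because Palm and Palm2 were the members whose groups did not overlap, the 250 bases upstream of their starts are shown as given by RefSeq (assembly GRCr8, which need not be the build used for the deposited table). In RefSeq, Palm2 and Akap2 are names of a single gene, Pakap, which has more than 1 start, and the start that lies first in the gene is shown. Capitals mark matches to 4 common promoter elements, chosen after the sequences had been seen and searched on both strands, the E-box CACGTG, the GC box GGGCGG, the TATA box TATAAA and the CCAAT box CCAAT. No matches overlapped in the sequences shown. Palm lies at chr7:10563008-10563257 on the minus strand, and Palm2 (Pakap) at chr5:77108543-77108792 on the plus strand.
Palm: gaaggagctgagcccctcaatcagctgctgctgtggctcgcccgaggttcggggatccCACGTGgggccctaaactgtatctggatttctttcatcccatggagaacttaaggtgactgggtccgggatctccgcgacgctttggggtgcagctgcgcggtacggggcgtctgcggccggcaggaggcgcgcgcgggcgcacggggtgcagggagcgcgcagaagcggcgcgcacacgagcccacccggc
Palm2 (Pakap): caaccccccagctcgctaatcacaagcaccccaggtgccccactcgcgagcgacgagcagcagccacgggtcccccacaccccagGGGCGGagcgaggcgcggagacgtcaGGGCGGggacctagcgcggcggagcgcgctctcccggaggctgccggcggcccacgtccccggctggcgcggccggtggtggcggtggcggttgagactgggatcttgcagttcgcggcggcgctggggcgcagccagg

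The Palm sequence held 1 E-box, which began 192 bases before the start, and none of the other 3 elements. An E-box was found in 5.59% of the 33469 upstream sequences of the same length in RefSeq. The Palm2 (Pakap) sequence held 2 GC boxes, which began 165 and 139 bases before the start, and no E-box. A GC box was found in 30.5% of all upstream sequences, a TATA box in 12.9% and a CCAAT box in 34.0%. Both sequences were rich in CpG, with 27 CpG for Palm and 32 for Palm2 (Pakap) against a median of 5. Of all upstream sequences, 92.3% held fewer CpG than that of Palm and 95.9% held fewer than that of Palm2 (Pakap). The sequence before the second start of Pakap held 8 CpG and the sequence before Palmd held 7, both with none of the 4 elements. No upstream sequence was used for Palm3.

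Palm was higher in all diabetic testes than in any non-diabetic testis. It was at 2.46, 1.90 and 1.59 FPKM in the DM samples, and the non-diabetic samples were at 0.302, 0.174 and 0.199 FPKM. The groups did not overlap, and the lowest DM sample lay well above the highest non-diabetic sample. The mean was 1.98 ± 0.438 FPKM with diabetes and 0.225 ± 0.0679 FPKM without it (SD, n = 3 each), a ratio of 8.82. After log2(FPKM + 0.1), a transformation that makes changes of low genes look smaller, the difference was 2.68 with a standard error (SE) of 0.30 from limma. In whole tissue, more cells of a type and more RNA per cell cannot be told apart. The spread among samples of the same group was larger for Palm than for most genes, with a residual SD of 0.29 against a median of 0.18 on the same log2 scale, and 26.9% of the genes tested had a larger one.

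The other 3 members differed less. Palm2 was at 0.507, 0.631 and 0.558 FPKM in the DM samples, and the non-diabetic samples were at 0.410, 0.461 and 0.413 FPKM. Its groups did not overlap either, although the gap between the nearest samples was small. Its mean was 0.565 ± 0.0625 FPKM with diabetes and 0.428 ± 0.0285 FPKM without (SD, n = 3 each), and the log2 difference was 0.33 (SE 0.25).

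Palmd was at 0.369, 0.399 and 0.252 FPKM in the DM samples, and the non-diabetic samples were at 0.262, 0.222 and 0.298 FPKM. Of the DM samples 2 lay above the non-diabetic range and 1 lay inside it, so the groups overlapped. Its mean was 0.340 ± 0.0774 FPKM with diabetes and 0.261 ± 0.0378 FPKM without (SD, n = 3 each), and the log2 difference was 0.28 (SE 0.28).

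Palm3 was barely detected, at 0.0179, 0.0776 and 0.0380 FPKM in the DM samples, and the non-diabetic samples were at 0.0497, 0.0231 and 0.0516 FPKM. The lowest and the highest value were both from DM samples, and the groups overlapped entirely. The log2 difference of Palm3 was 0.016 (SE 0.26).

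**Figure D1:**
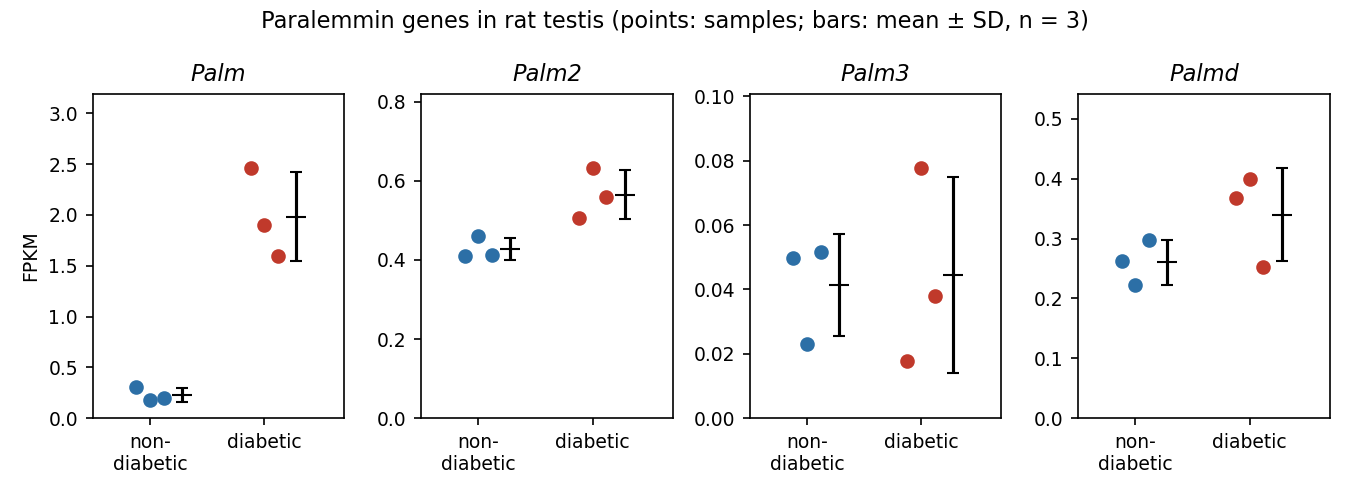
FPKM (y axis, starting at 0 and scaled separately for each gene) of Palm, Palm2, Palm3 and Palmd in the non-diabetic (blue) and DM (red) samples, with black bars for the mean ± SD (n = 3). The DM samples of Palm lie between 1.59 and 2.46 FPKM and the non-diabetic samples between 0.174 and 0.302 FPKM, whereas the groups of Palm3 and Palmd overlap.

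Only Palm reached a mean of 0.5 FPKM over the 6 samples, the minimum for the 20338 genes that were tested across the table. Palm was at 1.10 FPKM and Palm2 lay just below the minimum at 0.496 FPKM, while Palmd was at 0.300 FPKM and Palm3 at 0.0430 FPKM. A high level in the DM samples alone took Palm past this minimum. The SE of the 3 members below it comes from the fit without a minimum. For each SE limma also draws on other genes of similar level, so it is not the spread of a member alone. The residual SD on the log2 scale was 0.11 for Palm2, 0.22 for Palmd and 0.24 for Palm3. The study counted a gene as changed when its log2 fold change reached 1 in size and its p-value, without adjustment, was below 0.05. Palm, the only member among the genes tested, met this criterion with a rise, as did 0.398% of all genes tested. Groups that did not overlap, with the DM samples higher, were found for 2 members and for 4.02% of the 30782 genes above 0 in at least 1 sample. These contrasts served to choose the family, and the counts are given only as a description.

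Among all genes tested, Palm ranked 19th by its log2 fold change, where rank 1 is the strongest rise. Of the 18 genes above it, 10 carried a symbol, where clone names such as AABR07031184.1 were counted as symbols. When the ranking was limited to the 12237 tested genes whose symbol is that of a protein-coding gene in RefSeq, Palm had rank 1. This match leaves out genes that RefSeq lists under another name. The family was chosen for the rise of Palm, so both ranks are only a description. The level of Palm stood at percentile 32.7 to 37.7 of all genes in the non-diabetic samples and at percentile 56.4 to 62.7 in the DM samples. Palm2 stayed between percentile 40.5 and 45.4 in all 6 samples, Palmd between 34.8 and 40.7, and Palm3 between 23.7 and 28.1.

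The summed level of the 4 members was 2.93 ± 0.459 FPKM in the DM samples and 0.955 ± 0.0717 FPKM in the non-diabetic samples (SD, n = 3 each). Palm made up 73.3%, 63.2% and 65.3% of this sum in the DM samples and 29.5%, 19.8% and 20.7% in the non-diabetic samples. Palm2 was the leading member in all non-diabetic samples, with 45.1% ± 6.43 of the sum (SD, n = 3), and held 19.6% ± 4.03 in the DM samples (SD, n = 3). The share of Palmd was 27.3% ± 3.21 without diabetes and 11.5% ± 1.54 with it (SD, n = 3 each). Both shares were smaller in the DM samples although the mean levels of Palm2 and Palmd were not lower there.

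**Figure D2:**
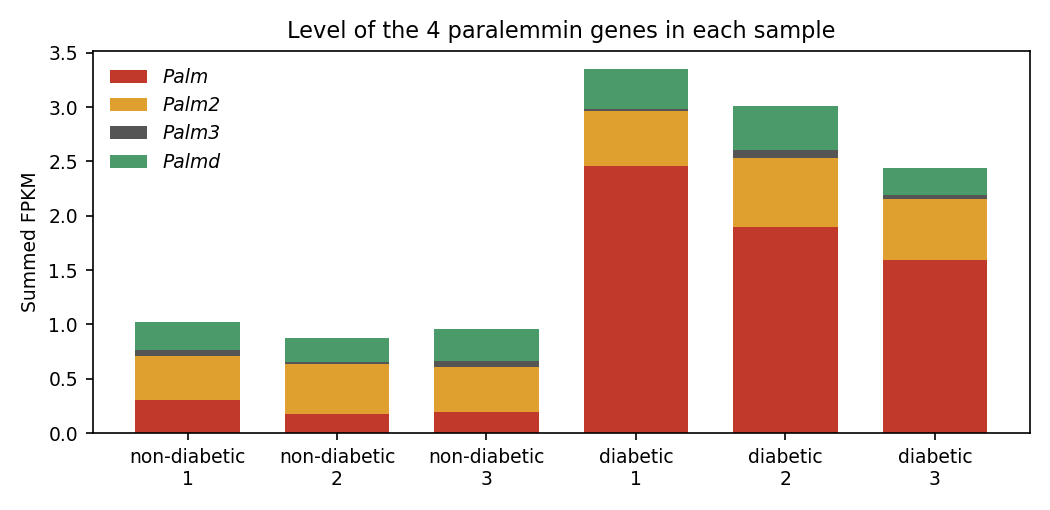
Summed FPKM (y axis) of Palm (red), Palm2 (yellow), Palm3 (dark grey) and Palmd (green) in each sample, stacked. The sums lie near 1 FPKM in the non-diabetic samples and between 2.44 and 3.35 FPKM in the DM samples, and the red portion makes up most of the difference.

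The order of Palm2, Palm3 and Palmd within a sample did not enter the choice of the family and was tested. For each of these 3 pairs the log2(FPKM + 0.1) difference within a sample was compared with 0 over the 6 samples, with an exact two-sided sign-flip permutation test, whose smallest possible p-value is 0.0313. After Benjamini-Hochberg adjustment the p-value of each pair was 0.0313 over these 3 pairs. The planned adjustment over all 6 pairs of members gave 0.0469, a value that also rests on the pairs with Palm. The place of Palm in the order depends on the values that chose the family and is given as a description.

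Leaving Palm aside, the order was the same in every sample. Palm2 was above Palmd in 6 of 6 samples, by 0.58 ± 0.22 on the log2 scale (SD, n = 6; exact p = 0.0313) and by 1.37 to 2.21 times in FPKM. Palmd was above Palm3 in 6 of 6 samples, by 1.48 ± 0.26 (SD, n = 6; exact p = 0.0313) and by 5.14 to 20.6 times in FPKM. Palm3 lay below the 0.1 FPKM added before the log2 in every sample, so log2 differences to it understate the ratios. Palm2 was above Palm3 by 2.06 ± 0.25 with the same exact p-value (SD, n = 6), and by 8.01 to 28.3 times in FPKM. The sign and p-value of this last pair follow from the other pairs and add no separate support. The differences between neighbours in this order were thus larger than their spread between samples.

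The place of Palm differed between the groups. It was above Palm3 in 6 of 6 samples, by 3.85 ± 0.51 on the log2 scale in the DM and 1.19 ± 0.23 in the non-diabetic samples (SD, n = 3 each). Against Palm2 it was higher in all 3 DM samples, by 2.86 to 4.85 times in FPKM, and lower in all 3 non-diabetic samples, at 0.378 to 0.737 times the level of Palm2. The log2 difference between Palm and Palm2 was 1.63 ± 0.39 in the DM and -0.72 ± 0.35 in the non-diabetic samples (SD, n = 3 each). Against Palmd it was higher in all DM samples, by 4.76 to 6.67 times, and in 1 of 3 non-diabetic samples, where the ratio ran from 0.667 to 1.15. The log2 difference between Palm and Palmd was 2.24 ± 0.22 in the DM and -0.17 ± 0.29 in the non-diabetic samples (SD, n = 3 each). The order was therefore Palm, Palm2, Palmd and Palm3 in each DM sample, and in the non-diabetic samples Palm2 came first, Palm and Palmd lay close together and Palm3 came last.

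**Figure D3:**
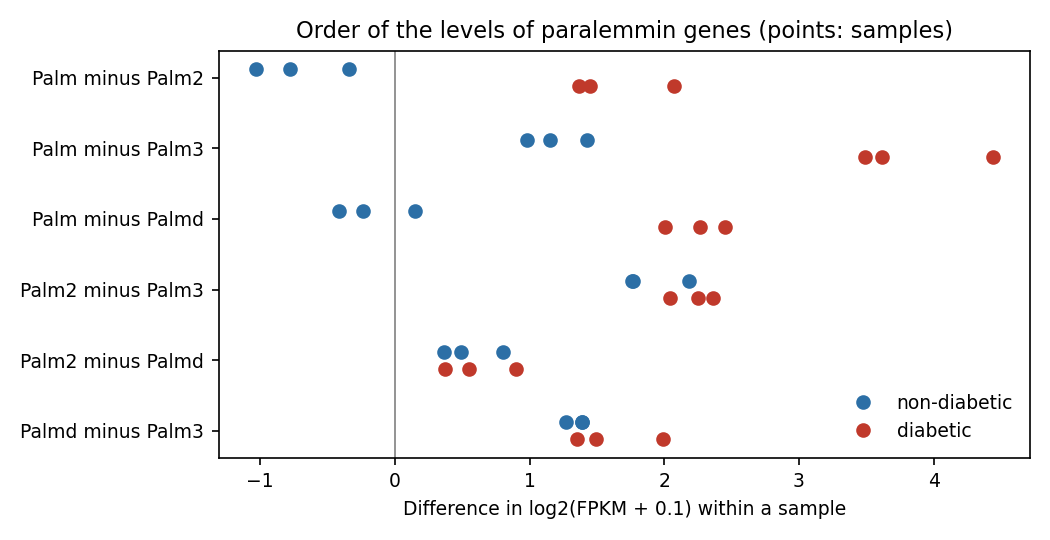
Differences in log2(FPKM + 0.1) between 2 members within a sample (x axis) for the 6 pairs of members (y axis), with 1 point for each DM (red) and non-diabetic (blue) sample. The pairs without Palm keep to the right of 0 in all samples, whereas Palm minus Palm2 is positive in the 3 DM samples and negative in the 3 non-diabetic samples.

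Akap2, which encodes an anchoring protein of protein kinase A, has its own entry in the deposited table although RefSeq joins it with Palm2 in the gene Pakap. It was at 20.7, 17.4 and 13.2 FPKM in the DM samples, and the non-diabetic samples were at 22.1, 21.0 and 17.5 FPKM. The groups overlapped, and the log2 fold change was -0.25 with an SE of 0.17 (limma adjusted p = 0.823). Akap2 was thus far more abundant than Palm2 and had a difference of the opposite sign. Reads of exons that the joined transcripts share could have been assigned to either entry, which was not tested. The level of Palm2, its place in the order and its share of the family could depend on that assignment. The values of all 4 members were written with at most 6 decimals, whereas Akap2 was among the 5641 genes with longer values, as sums of several values can have.

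Of the 4 protein-coding genes nearest to Palm in RefSeq order, 3 could be tested. Misp, which encodes an actin-bundling protein of mitosis and is the next gene after the end of Palm, was at 3.62, 3.49 and 3.20 FPKM in the DM samples, and the non-diabetic samples were at 3.20, 3.73 and 3.13 FPKM. The groups of Misp overlapped, with a log2 fold change of 0.038 (SE 0.12, limma adjusted p = 0.974). Fstl3, the gene of a follistatin-like activin antagonist, was at 5.05 ± 0.722 and 5.07 ± 0.752 FPKM (SD, n = 3 each; log2 fold change -0.0067, limma adjusted p = 0.997). Ptbp1, the gene of a splicing regulator, was at 33.6 ± 0.944 FPKM in the DM and 28.6 ± 2.51 FPKM in the non-diabetic samples (SD, n = 3 each), and its log2 fold change was 0.23 (SE 0.077, limma adjusted p = 0.575). Prss57, a serine protease gene of neutrophils and the neighbour at the start of Palm, was listed at 0 in 5 samples and at 0.0224 FPKM in the other.

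Over the 16 genes next to the 4 members, 13 were tested, and their log2 fold changes lay between -0.81 and 0.65. None had an adjusted p-value below 0.05 from limma, a limit passed by 0.0344% of all genes tested. The unadjusted p-value was below 0.05 for 2 of the 13, Ptbp1 and Txn1, and for 7.46% of all genes tested. Txn1, a thioredoxin gene near Pakap that is named here after its values were seen, was at 9.57 ± 1.18 FPKM in the DM and 17.0 ± 2.93 FPKM in the non-diabetic samples (SD, n = 3 each; log2 fold change -0.81, limma adjusted p = 0.261).

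**Figure D4:**
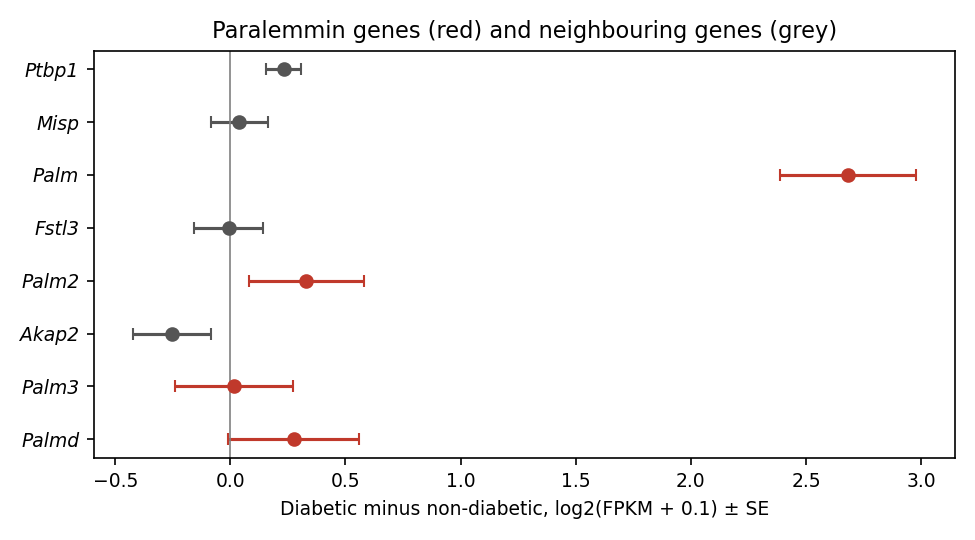
Diabetic minus non-diabetic difference in log2(FPKM + 0.1) with its SE (x axis) for the paralemmin genes (red) and for the tested neighbours of Palm and Akap2 (grey). Palm stands at 2.68, and the other genes drawn lie between -0.25 and 0.33.

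No gene for the enzymes that attach and remove the lipids of paralemmins, or for related membrane proteins and partners, passed the test. Of the 63 genes in 6 lists around the family, all had an entry in the table and 54 were tested. None of them had an adjusted p-value below 0.05 from limma, a limit passed by 0.0344% of all genes tested. An unadjusted p-value below 0.05 was reached by 3 of the 54 genes, or 5.56%, against 7.46% of all genes tested, and none met the study's criterion. The median log2 fold change was -0.021 over the 54 genes and -0.021 over all genes tested.

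Among the 6 enzymes of CaaX prenylation and processing, the log2 fold changes lay between -0.10 and 0.098. Fnta, the shared alpha subunit of the farnesyl and geranylgeranyl transferases, was the most abundant of them, at 53.9 ± 0.327 FPKM in the DM and 50.3 ± 0.389 FPKM in the non-diabetic samples (SD, n = 3 each; log2 fold change 0.098, limma adjusted p = 0.740). Zmpste24, which removes the last residues of prenylated proteins, was at 13.0 ± 1.71 and 13.9 ± 0.713 FPKM (SD, n = 3 each; limma adjusted p = 0.905).

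Of the 26 genes of palmitoyl transferases and their partners, 23 were tested, 10 with a positive and 13 with a negative log2 fold change. Zdhhc13 was at 3.28 ± 0.324 FPKM in the DM and 4.02 ± 0.0937 FPKM in the non-diabetic samples (SD, n = 3 each), and its log2 fold change was -0.29 (SE 0.12, limma adjusted p = 0.661). Zdhhc17 was at 6.64 ± 0.428 and 7.40 ± 0.102 FPKM (SD, n = 3 each; limma adjusted p = 0.776). Log2 fold changes ran from -0.26 to 0.060 for the 8 thioesterases, which take palmitate off again, and the lowest unadjusted p-values were those of Ppt2 (limma adjusted p = 0.792) and Lypla1 (limma adjusted p = 0.898).

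Of 7 genes of other lipid-anchored or membrane proteins of growth cones 5 were tested, with log2 fold changes between -0.14 and 0.097. Gpm6b, which encodes a membrane glycoprotein of neurons and glia, had a log2 fold change of 0.097 (limma adjusted p = 0.910), and Marcksl1, a MARCKS-related gene, one of -0.069 (limma adjusted p = 0.917). Gap43 was listed at 0 in 4 samples and was below 0.05 FPKM in the other 2.

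Among the 9 genes of membrane linkers and filopodia, 8 were tested. Slc9a3r1, which encodes the scaffold NHERF1 that binds ezrin, was at 14.1 ± 1.09 FPKM in the DM and 12.2 ± 0.582 FPKM in the non-diabetic samples (SD, n = 3 each), and its log2 fold change was 0.21 (SE 0.084, limma adjusted p = 0.661). Cdc42, the GTPase of filopodia, had a log2 fold change of -0.17 (SE 0.079, limma adjusted p = 0.696).

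The genes of proteins that bind family members, or act with them, were tested for 4 of 7. Irak1, a kinase of interleukin-1 and Toll-like receptor signalling, was at 2.93 ± 0.445 FPKM in the DM and 3.86 ± 0.491 FPKM in the non-diabetic samples (SD, n = 3 each; log2 fold change -0.39, limma adjusted p = 0.661). The genes of the receptors were low. Sigirr, the gene of the partner of paralemmin-3, was at 0.520, 0.377 and 0.250 FPKM in the DM samples, and the non-diabetic samples were at 0.398, 0.453 and 0.482 FPKM. Drd3, the gene of a dopamine receptor that binds paralemmin-1, did not exceed 0.114 FPKM in any sample.

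**Figure D5:**
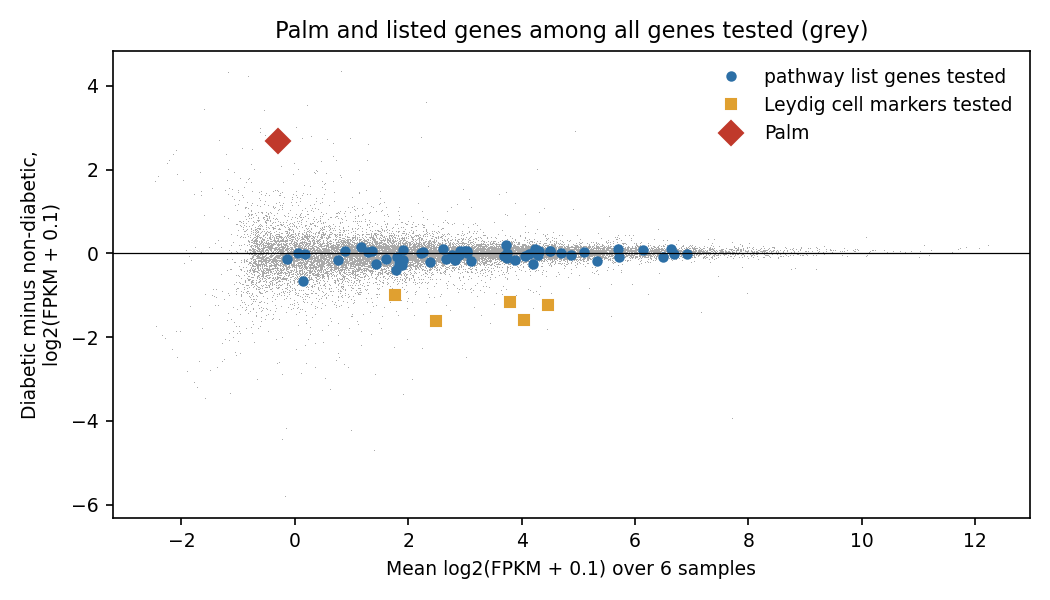
Diabetic minus non-diabetic difference in log2(FPKM + 0.1) (y axis) against the mean log2(FPKM + 0.1) of the 6 samples (x axis) for the 20338 genes tested (grey), with Palm (red), the 54 tested genes of the 6 lists (blue) and 5 Leydig cell markers (yellow). Palm lies at 2.68, the blue points lie between -0.67 and 0.21, and the yellow points lie between -1.62 and -1.0.

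Markers of some cell types also differed between the groups, so that marker levels are shown beside Palm. A lower marker level can mean fewer cells or less RNA per cell, which cannot be told apart in whole tissue. The 5 Leydig cell markers in the table, of 6 listed, summed to 26.8 to 55.4 FPKM in the DM samples and to 81.6 to 115 FPKM in the non-diabetic samples. All 5 were lower, their median log2 fold change being -1.24. Of these 5 markers 1, Cyp17a1, a gene of androgen synthesis, had an adjusted p-value below 0.05 (limma adjusted p = 0.0415). With non-diabetic sample 3 left out, no gene tested passed this limit in limma, Cyp17a1 included. The 5 macrophage markers summed to 22.8 to 29.3 FPKM and to 29.1 to 30.7 FPKM, and all 5 were lower, at a median of -0.80 on the log2 scale. By limma 0 of them had an adjusted p-value below 0.05 and 3 an unadjusted one. The other macrophage markers, Mrc1, the most abundant, and Cd163, had log2 fold changes of only -0.064 and -0.23. Of all genes tested, 0.0344% had an adjusted and 7.46% an unadjusted p-value below 0.05.

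The markers of the other cells of the testis differed less. Those of Sertoli cells summed to 54.9 to 56.4 FPKM in the DM and 50.2 to 56.5 FPKM in the non-diabetic samples, with a median log2 fold change of 0.14. The median was -0.17 for the 6 spermatogonium markers, 0.032 for the 6 spermatocyte markers, -0.072 for the 6 spermatid markers and -0.17 for the 6 markers of peritubular and smooth muscle cells. It was -0.15 for the 3 endothelial markers tested and -0.091 for the 4 markers of nerve and glia tested. None of these lists held a gene with an adjusted p-value below 0.05 from limma. The unadjusted p-value was below 0.05 for 2 spermatogonium markers, 1 higher and 1 lower, and 1 marker of nerve and glia. Of all genes tested, 0.0344% had an adjusted and 7.46% an unadjusted p-value below 0.05. The part of the cell make-up in the level of Palm was not tested.

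The genes most like Palm across the 6 samples were sought by Pearson's r of log2(FPKM + 0.1) over the 20337 other genes tested, as a description. With so few samples, all of which also differ by group, 45 genes had an r above 0.95 and 125 had one below -0.95. The highest values belonged to an assembled locus without a symbol (r = 0.993), Pdc (r = 0.992), Sec24a (r = 0.991), AABR07031184.1 (r = 0.985) and Gpx6 (r = 0.982). Spearman's rho was 1 for the assembled locus and for Pdc, the gene of phosducin, which binds G protein subunits in photoreceptors, 0.943 for Sec24a, a gene of the COPII vesicle coat, 0.886 for AABR07031184.1 and 0.943 for Gpx6.

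The genes alike in pattern differed in the size of the difference. Pdc was at 1.72, 1.71 and 1.57 FPKM in the DM samples, and the non-diabetic samples were at 1.28, 1.15 and 1.20 FPKM, a log2 difference of 0.43. Sec24a had a log2 difference of 0.13 and Gpx6, a glutathione peroxidase gene, one of 0.42. The difference was of the size of that of Palm only for AABR07031184.1, an uncharacterised gene, at 1.60, 2.06 and 1.58 FPKM in the DM samples, and the non-diabetic samples were at 0.248, 0.148 and 0.114 FPKM. Its log2 difference was 2.80 with an SE of 0.32.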

How the data were processed

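For the 6 testis samples the authors used FastQC for read quality, BWA against rRNA and STAR against the genome, and the submitters' notes also name StringTie. The table holds 1 FPKM value per gene and sample, as the authors calculated and deposited it. The genome build and the versions of these tools are not given in the sources used here, and the authors' DESeq2 screen of transcripts could not be repeated without counts.

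FPKM were transformed to log2(FPKM + 0.1), and genes averaging 0.5 FPKM or more over the samples (20338) entered a two-sided limma test (version 3.58.1, trended eBayes, R 4.3.3) without a block. P-values were adjusted by the Benjamini-Hochberg method over all these genes. The steps were tested on simulated data. Levels of members were compared with an exact sign-flip permutation test (scipy 1.17.1 under Python 3.11.15). Upstream sequences and neighbours came from RefSeq (assembly GRCr8), where 3 of the 4 members had an upstream sequence.

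The members and lists were chosen with earlier results of these data known. The genes named are the 4 members, the 2 nearest protein-coding genes on each side of Palm, Akap2, the genes of each list with an adjusted p-value below 0.05 or otherwise the 2 with the lowest unadjusted p-values, and the 5 genes with the highest r with Palm (with no such genes for the other members, which were not tested). Other genes are named as examples. Alternatives were pseudocounts of 1 and 0.01, no minimum, a mean of at least 1 FPKM, median-ratio scaling, rescaling to TPM, eBayes without the trend, protein-coding genes only, summed symbols, a block for the replicate number, and leaving out each sample. The small RNA libraries were not analysed here.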

Additional observations from a re-analysis of the deposited data

How the results depend on the processing

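The log2 difference of Palm was 1.28 with a pseudocount of 1 and 3.10 with a pseudocount of 0.01, against 2.68, and that of Palm2 was 0.13 with a pseudocount of 1, because a larger pseudocount shrinks differences of low genes. Leaving out a sample gave 2.52 to 2.84 for Palm, 0.26 to 0.39 for Palm2, 0.18 to 0.43 for Palmd and -0.14 to 0.15 for Palm3. The sign of Palm3 changed without diabetic sample 2 (-0.14), without non-diabetic sample 2 (-0.081) and with a pseudocount of 0.01 (-0.018).

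For the order of the levels, leaving out a sample gave log2 differences of 0.13 to 0.75 for Palm minus Palm2, 2.13 to 2.83 for Palm minus Palm3, 0.75 to 1.33 for Palm minus Palmd, 2.0 to 2.12 for Palm2 minus Palm3, 0.52 to 0.62 for Palm2 minus Palmd and -1.52 to -1.38 for Palm3 minus Palmd. With 5 samples the exact test cannot reach the threshold, and these fits say nothing about it. The pairs with Palm are given as values only. The sizes depended strongly on the pseudocount, whereas the signs did not. With pseudocounts of 1 and 0.01, Palm2 minus Palm3 was 0.52 and 3.34, and Palm2 minus Palmd was 0.20 and 0.72. Palm3 minus Palmd was -0.32 and -2.63, and Palm minus Palm3 was 0.87 and 3.77. The adjustment over the 3 pairs without Palm was added after seeing the data.

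Over all genes, 253 met the criterion. This number was 91 with a pseudocount of 1, 621 without a minimum and 85 among protein-coding genes only, and 246 to 335 with a sample left out. Of these 253 genes 68.0% were lower in the diabetic samples, and 89.4% of the 85. There were 7 genes with an adjusted p-value below 0.05 from limma, 3 without a minimum, 12 without the trend, 36 among protein-coding genes only and 15 with summed symbols. Leaving out a sample gave 0 to 11, with 4 without diabetic sample 1, 11 without non-diabetic sample 1 and 0 without non-diabetic sample 3, although the unadjusted p-value of 1504 genes was below 0.05. In the 6 lists it was 0 under each of the 16 alternatives, and 1 to 3 genes had an unadjusted p-value below 0.05 with a sample left out, 1 without diabetic or non-diabetic sample 2. The cause of these changes was not tested.

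With the replicate number as a block, 4 genes had an adjusted p-value below 0.05, and 1 gene of the 6 lists had an unadjusted p-value below 0.05. Deviations from the group means of samples with the same number correlated at 0.015 to 0.11, and those with different numbers at -0.13 to 0.032. Of the 6 samples 4 correlated best with their own number. These values do not settle whether the numbers mark a pairing. The labels state none, and the main fit was left without a block.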
